A study of Mus musculus with 36 samples.

Results

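The 8 genes described here encode enzymes that make, modify or consume nicotinamide adenine dinucleotide (NAD) in mouse liver. They were Nampt, Nmnat1, Nmnat3, Nadk, Nadsyn1, Nnmt, Sirt1 and Sirt3, chosen by name as NAD salvage genes and NAD-consuming sirtuins. The choice was made with earlier results of these data known, but its rule uses no measured difference between groups. Each was represented by its brightest probe set among those annotated to that gene alone, and all 8 of the 8 were measured, out of 19938 genes with such a probe set. All 8 also lay above the level filter that left 13956 genes for testing. Liver RNA came from C57BL/6J mice, an inbred strain, that were 16 weeks old at harvest. One arm had eaten a high fat diet with 60% of calories from fat and the other normal chow, in both cases for 10 weeks and with free access to food. All mice lived under 12 h of light a day. Livers were taken at ZT0, 4, 8, 12, 16 and 20, where ZT is the hours since lights on, so that ZT12 is the start of the dark, active phase. Every diet at every time was measured on 3 whole-transcript arrays, which makes 12 groups and 36 arrays. The labels used here name neither sex nor the make-up of the chow. They number the samples of each group but do not say that each came from a separate animal, and p-values therefore cover only the spread among these arrays, which may be technical.

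NAD carries electrons in metabolism and is also split by signalling enzymes, which release nicotinamide. The salvage route returns that nicotinamide to NAD: Nampt, its rate-limiting enzyme, makes nicotinamide mononucleotide, and the Nmnat enzymes join it to an adenylate group. Sirtuins use NAD to remove acyl groups from proteins. Nampt is known as a gene driven by the circadian clock, whose activators Clock and Arntl bind E-box sequences, and the liver also makes NAD from tryptophan through the kynurenine route.

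In GRCm38.p6, Nampt lies at chr12:32820335-32853369, Nmnat1 at chr4:149467569-149485210 and Nmnat3 at chr9:98287433-98420533. Nadsyn1 lies at chr7:143795589-143822862, Nadk at chr4:155562381-155591001 and Nnmt at chr9:48538002-48607655. Sirt1 lies at chr10:63319005-63339035 and Sirt3 at chr7:140863663-140882309. Each had 1 probe set: 10395259 for Nampt, 10518679 for Nmnat1, 10588028 for Nmnat3, 10569545 for Nadsyn1, 10511084 for Nadk, 10593219 for Nnmt, 10369738 for Sirt1 and 10568997 for Sirt3. Levels of different probe sets are not compared with each other.

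Promoter windows from RefSeq (GRCm38.p6, 250 bases before to 50 after a start site) were matched for 7 of the 8 genes, 10 windows in all. They were searched on both strands for the E-box CACGTG, the related element CACGTT, the D-box TTATGTAA and the nuclear receptor hexamer AGGTCA. The windows of Nampt, Sirt1 and Nadk are shown because the rhythm of Nampt carries the results below, and because the E-box was found in windows of only Sirt1 and Nadk among these genes. Capitals mark the motifs found, and positions are counted from the start site.
Nampt, chr12:32820085-32820384, plus strand: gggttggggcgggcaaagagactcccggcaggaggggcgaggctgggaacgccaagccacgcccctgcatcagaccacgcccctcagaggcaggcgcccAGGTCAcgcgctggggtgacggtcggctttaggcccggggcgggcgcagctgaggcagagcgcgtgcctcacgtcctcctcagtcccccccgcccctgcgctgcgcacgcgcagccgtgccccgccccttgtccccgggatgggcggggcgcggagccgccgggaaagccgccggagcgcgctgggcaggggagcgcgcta
Sirt1, chr10:63338986-63339285, minus strand: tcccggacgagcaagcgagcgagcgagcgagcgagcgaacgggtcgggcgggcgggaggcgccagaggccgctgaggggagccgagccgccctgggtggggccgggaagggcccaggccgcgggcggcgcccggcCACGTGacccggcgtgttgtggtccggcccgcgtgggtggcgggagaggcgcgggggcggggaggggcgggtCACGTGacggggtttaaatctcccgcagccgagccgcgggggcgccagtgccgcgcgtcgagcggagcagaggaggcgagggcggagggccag
Nadk, second window, chr4:155563565-155563864, plus strand: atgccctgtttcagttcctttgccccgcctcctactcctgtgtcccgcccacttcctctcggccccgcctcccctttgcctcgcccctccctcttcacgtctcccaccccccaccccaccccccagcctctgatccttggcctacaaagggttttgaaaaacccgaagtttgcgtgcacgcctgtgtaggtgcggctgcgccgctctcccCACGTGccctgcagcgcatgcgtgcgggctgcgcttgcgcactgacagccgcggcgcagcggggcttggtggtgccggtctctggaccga
The Nampt window held the hexamer at -151 and none of the other motifs. The Sirt1 window held the E-box at -115 and -43, and the Nadk window held it at -40. The Nmnat3 window held the hexamer at 24 bases after the start. Among 32851 such windows of 27025 genes, 7.15% held CACGTG, 4.68% CACGTT, 0.938% the D-box and 16.3% the hexamer. A match describes letters only, and an absent match says nothing of what binds the gene.

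Array medians lay between 75.7 and 95.6 intensity units, arrays of a group correlated at 0.976 to 0.993, and the median gene had a residual SD of 0.139 on the log2 scale within groups. One array, normal chow ZT4 replicate 2, had the lowest weight of the 36 when arrays were weighted by their fit to their groups (0.265). The results of Nampt, Nadk, Nmnat3 and Sirt3 at ZT4, and the Sirt1 rhythm on normal chow, are given with and without it. All 8 hepatocyte markers were tested and their summed intensity ran from 66950 to 77030 on the high fat diet and from 64900 to 78040 on normal chow, so the samples carry the markers of the labelled tissue. In whole liver, fewer cells of a type and less RNA per cell cannot be told apart.

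The first question was whether the diet changed the level of these genes over the day. Differences are high fat diet minus normal chow on the scale log2(intensity + 16), averaged over the 6 times. None of the 8 genes passed limma's test with Benjamini-Hochberg adjustment over all 13956 genes (adjusted p under 0.05), and 1 of the 8, Nmnat1, had an unadjusted p under 0.05, as did 32.1% of all genes tested. At the adjusted threshold, 11.2% of all genes tested were higher and 9.80% lower on the high fat diet, and centring every array on its median left 827 higher and 1926 lower in place of 1570 and 1367. The median difference of the 8 genes was 0.02, and that of all genes tested was also 0.02.

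Nmnat1, which makes NAD in the nucleus, had a median of 9.03 (lowest 8.20, highest 9.67) on the high fat diet and 8.69 (lowest 7.70, highest 9.21) on normal chow over 18 arrays each. The diets overlapped widely, and the difference of 0.23 ± 0.09 (SE, 95% interval 0.04 to 0.42) had an adjusted p of 0.0834. It passed the test when high fat diet ZT8, ZT12 or ZT16 replicate 1 was left out (adjusted p 0.0472, 0.0387 and 0.0448). Its scatter was wide: the residual SD of 0.307 within groups was larger than that of 97.6% of genes tested.
Nnmt, which methylates nicotinamide and so removes it from salvage, had a median of 11.16 on the high fat diet and 11.30 on normal chow. Its difference of -0.14 ± 0.07 had a 95% interval of -0.28 to 0.00 and an adjusted p of 0.157. The other 6 genes had differences between -0.07 and 0.05, with adjusted p from 0.364 to 0.962. The narrowest interval was that of Nadk, which phosphorylates NAD to NADP, at -0.02 to 0.10. Sirt1, the nuclear sirtuin, averaged 8.09 ± 0.14 on the high fat diet and 8.09 ± 0.19 on normal chow (SD, n = 18 each), with a 95% interval of -0.10 to 0.09. Sirt3, the mitochondrial sirtuin, averaged 9.98 ± 0.21 on the high fat diet and 9.94 ± 0.20 on normal chow, with an interval of -0.06 to 0.14. The interval of Nampt ran from -0.17 to 0.03. These intervals leave room for average changes of the size of their bounds.

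**Figure D1:**
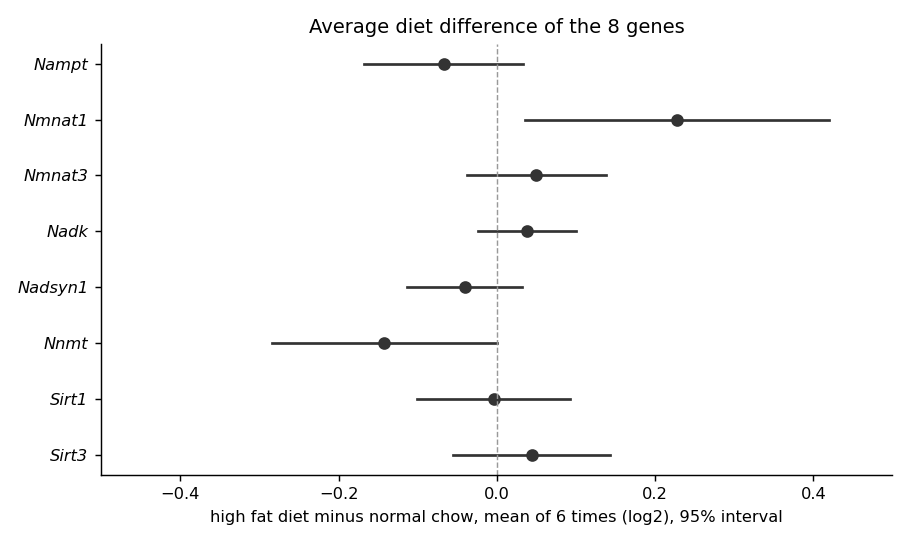
Average diet difference of each of the 8 genes. The x axis is high fat diet minus normal chow on the log2 scale, points are limma estimates over the 6 times, bars are 95% intervals and the dashed line marks no difference. The interval of Nmnat1 lies to the right of the line, from 0.04 to 0.42, but its adjusted p is 0.0834, and those of the other 7 genes reach or cross the line.

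The second question was whether the genes were rhythmic. A 24 h wave was fitted within each diet, and its amplitude is the log2 distance from mean to peak. On both diets, 5 of the 8 genes were rhythmic: Nampt, Nmnat3, Nadk, Nadsyn1 and Nnmt. Of all genes tested, 11.0% were rhythmic on the high fat diet and 20.6% on normal chow. Nampt had an amplitude of 0.57 ± 0.05 on the high fat diet and 0.77 ± 0.05 on normal chow, against 0.22 and 0.21 for the median rhythmic gene of each diet. The other 4 rhythmic genes had amplitudes of 0.13 to 0.30 on the high fat diet and 0.14 to 0.28 on normal chow.

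**Figure D2:**
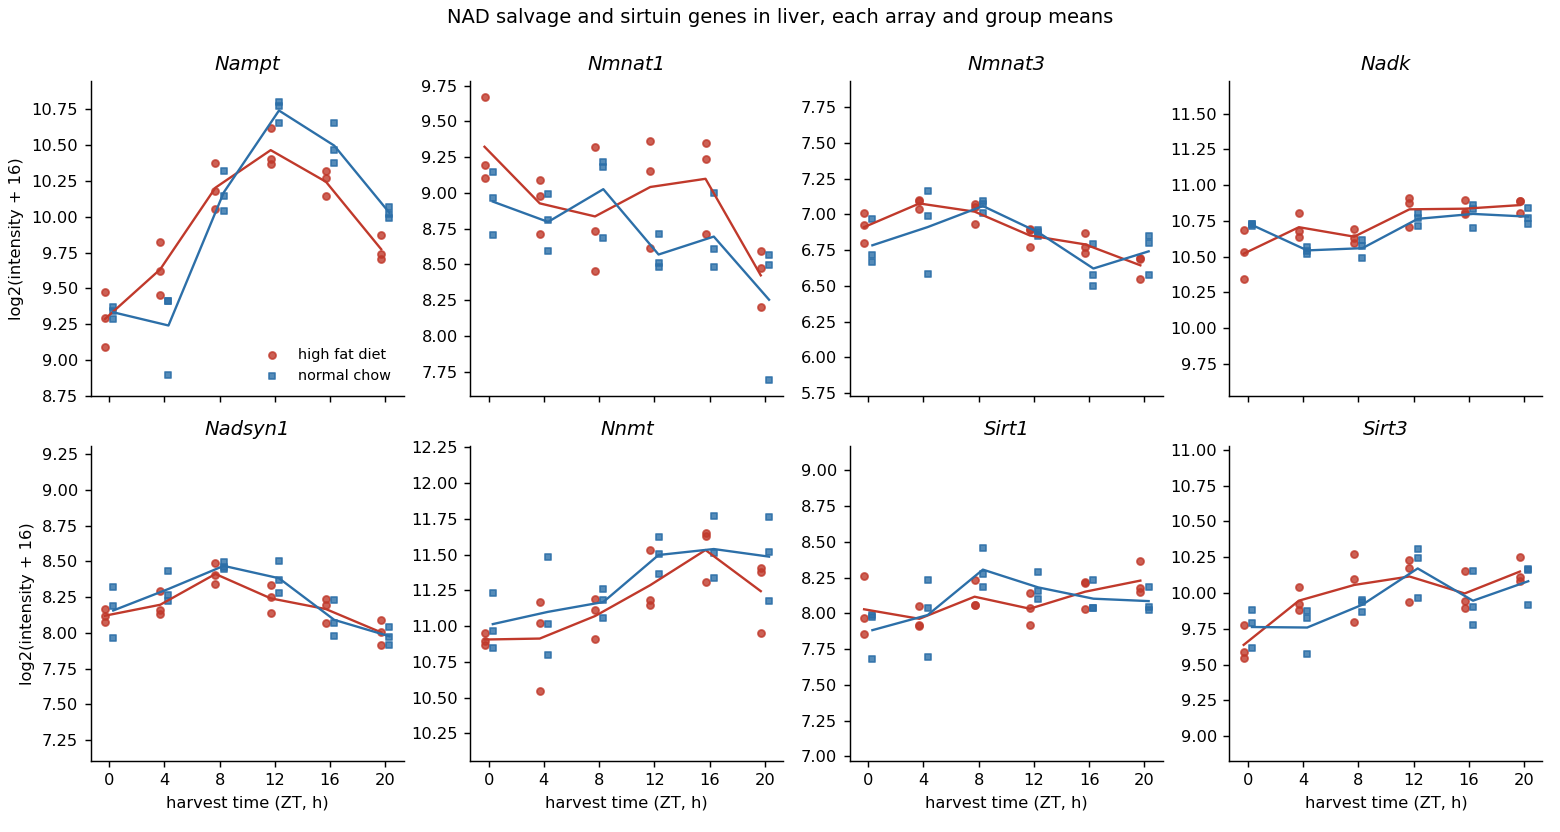
Level of the 8 genes by harvest time. The y axes are log2(intensity + 16), each with its own centre and the same span, the x axes are harvest times in ZT hours, points are single arrays (circles for the high fat diet, squares for normal chow, 3 per group) and lines join group means. Nampt has the widest daily swing, from 9.29 to 10.47 in group means on the high fat diet and from 9.24 to 10.74 on normal chow.

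Nampt was lowest in the early light phase and highest at the start of the dark phase on both diets. At ZT0 its levels were 9.47, 9.09 and 9.29 on the high fat diet and 9.37, 9.29 and 9.34 on normal chow, and the diets overlapped. At ZT4 they were 9.83, 9.45 and 9.62 on the high fat diet, against 9.41, 8.90 and 9.41 on normal chow. At this time the 3 high fat arrays lay above the 3 normal chow arrays, and normal chow had its lowest group mean, 9.24. Without normal chow ZT4 replicate 2, the array at 8.90, the ZT4 mean on normal chow was 9.41, above that at ZT0, 9.33. At ZT8 the levels were 10.18, 10.05 and 10.38 on the high fat diet and 10.04, 10.32 and 10.15 on normal chow, where the diets overlapped. At ZT12 they were 10.37, 10.41 and 10.62 on the high fat diet and 10.65, 10.80 and 10.77 on normal chow. Both diets had their highest group mean there, and the high fat arrays lay below the normal chow arrays. At ZT16 the levels were 10.32, 10.14 and 10.27 on the high fat diet and 10.65, 10.37 and 10.47 on normal chow. At ZT20 they were 9.70, 9.74 and 9.88 on the high fat diet and 9.99, 10.02 and 10.07 on normal chow. At both of these times the high fat arrays again lay below those on normal chow with no overlap.

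The span between the highest and lowest group mean of Nampt was 2.27-fold on the high fat diet and 2.83-fold on normal chow, or 2.66-fold on normal chow without ZT4 replicate 2. On the high fat diet, ZT12 stood clear of ZT16, ZT16 and ZT8 overlapped, and ZT20, ZT4 and ZT0 followed lower down, each overlapping the next. On normal chow, ZT12 stood clear of ZT16 and ZT16 of ZT8, ZT8 and ZT20 overlapped, and ZT0 and ZT4 overlapped at the bottom. The wave had an adjusted p of 2.51e-09 on the high fat diet, which ranked 23 among the 13956 genes, and 1.11e-12 on normal chow, which ranked 7. It peaked at ZT12.35 ± 0.35 h on the high fat diet and at ZT13.64 ± 0.26 h on normal chow.

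Nnmt and Nadk peaked later in the dark phase. At ZT16 the levels of Nnmt were 11.31, 11.65 and 11.63 on the high fat diet and 11.33, 11.77 and 11.51 on normal chow. At ZT0 they were 10.90, 10.96 and 10.87 on the high fat diet and 10.97, 11.23 and 10.85 on normal chow. Its arrays at ZT16 lay above those at ZT0 on each diet. The amplitude was 0.30 ± 0.07 on the high fat diet (adjusted p 0.0057) and 0.28 ± 0.07 on normal chow (adjusted p 0.00664), with peaks at ZT15.25 ± 0.84 and ZT15.35 ± 0.90. Nnmt was also among the more scattered genes, with a residual SD of 0.224, above 91.3% of genes tested.

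Nadk had the steadiest levels of the 8 genes, with a residual SD of 0.078 that was below that of nearly all genes tested (percentile 3.1). At ZT16 its levels were 10.90, 10.80 and 10.81 on the high fat diet and 10.86, 10.83 and 10.70 on normal chow. At ZT4 they were 10.80, 10.64 and 10.68 on the high fat diet and 10.57, 10.52 and 10.54 on normal chow. On normal chow the 4 groups at ZT12, 16, 20 and 0 lay clear of those at ZT4 and ZT8, while on the high fat diet each group overlapped its neighbour in the order of levels. The wave was small, 0.13 ± 0.04 on the high fat diet (adjusted p 0.0243, peak ZT15.26 ± 0.99) and 0.14 ± 0.04 on normal chow (adjusted p 0.0109, peak ZT17.45 ± 0.96). The call was lost on the high fat diet without high fat diet ZT16 replicate 1 (adjusted p 0.0563) and on normal chow with median centring (adjusted p 0.0761).

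Nadsyn1 and Nmnat3 peaked in the light phase. Nadsyn1, which turns the nicotinic acid form of the dinucleotide into NAD, was at 8.40, 8.49 and 8.34 on the high fat diet at ZT8 and at 8.46, 8.45 and 8.50 on normal chow. At ZT20 it was at 8.01, 8.09 and 7.91 on the high fat diet and at 8.04, 7.92 and 7.97 on normal chow. ZT8 was the highest and ZT20 the lowest of the 6 times on both diets. The amplitude was 0.16 ± 0.04 on the high fat diet (adjusted p 0.0044, peak ZT8.62 ± 0.82) and 0.24 ± 0.04 on normal chow (adjusted p 1.9e-05, peak ZT8.04 ± 0.57). Nmnat3, which makes NAD in mitochondria, peaked earlier. Its levels on the high fat diet were 7.04, 7.10 and 7.09 at ZT4 and 6.55, 6.70 and 6.69 at ZT20, and on normal chow they were 7.09, 7.07 and 7.01 at ZT8 and 6.50, 6.79 and 6.57 at ZT16. The highest and lowest groups did not overlap on either diet, although they fell at different times. The time of the highest group on normal chow depended on normal chow ZT4 replicate 2, at 6.58 against 6.99 and 7.17 in its group. Without that array the highest group mean of Nmnat3 on normal chow was 7.08 at ZT4, the same time as on the high fat diet. The amplitude was 0.19 ± 0.04 on the high fat diet (adjusted p 0.00764, peak ZT5.91 ± 0.87) and 0.18 ± 0.04 on normal chow (adjusted p 0.0084, peak ZT6.75 ± 0.93). The salvage route held both a gene with a light-phase peak, Nmnat3, and one that peaked at the start of the dark phase, Nampt.

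Sirt1, Sirt3 and Nmnat1 did not pass the rhythm test on either diet. Sirt1 had an amplitude of 0.09 ± 0.05 on the high fat diet (adjusted p 0.511) and 0.16 ± 0.05 on normal chow, where the adjusted p of 0.0521 was just over the threshold. On normal chow, Sirt1 was at 8.27, 8.19 and 8.45 at ZT8 and at 7.97, 7.99 and 7.68 at ZT0, and these arrays did not overlap. On the high fat diet it was at 8.06, 8.06 and 8.24 at ZT8 and at 7.86, 7.97 and 8.26 at ZT0, which did overlap. Its normal chow rhythm passed the threshold in 13 of 47 alternative settings, with adjusted p over all 47 from 0.0296 to 0.173. Among the 13 were leaving out normal chow ZT4 replicate 2 (0.0412) and quantile normalization (0.0346). Sirt3 had amplitudes of 0.16 ± 0.06 on the high fat diet (adjusted p 0.175) and 0.17 ± 0.06 on normal chow (adjusted p 0.0765). On the high fat diet its arrays at ZT0, at 9.78, 9.59 and 9.55, lay below those at the other 5 times. A test for any difference among the 6 times gave Sirt3 adjusted p of 0.0205 on the high fat diet and 0.0391 on normal chow, and its normal chow wave passed without normal chow ZT16 replicate 1 (0.0435) or replicate 3 (0.0242). Nmnat1 had amplitudes of 0.07 ± 0.12 on the high fat diet and 0.25 ± 0.12 on normal chow, with adjusted p of 0.935 and 0.255.

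**Figure D3:**
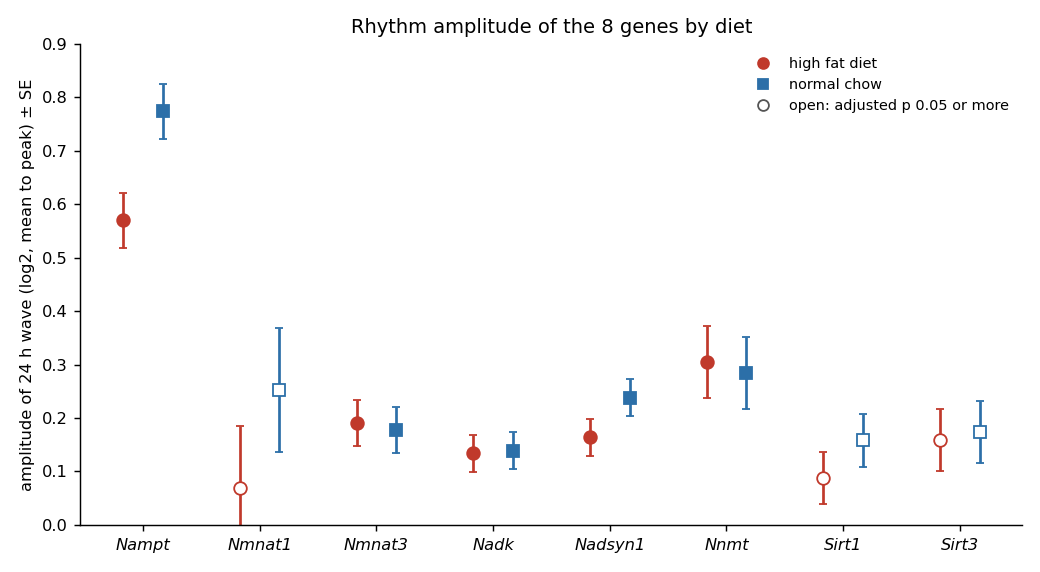
Amplitude of the fitted 24 h wave for each gene. The y axis is the log2 distance from mean to peak with its SE, circles are the high fat diet and squares normal chow, and open symbols mark an adjusted p of 0.05 or more. Nampt has the largest amplitude of the 8 genes on both diets, 0.57 on the high fat diet and 0.77 on normal chow.

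The third question was whether the diet changed the daily pattern. At single times, 0 of the 8 genes passed the test at any of the 6 times, where limma called 7.12% of genes at ZT0, 3.69% at ZT4, 0.774% at ZT8, 5.44% at ZT12, 2.22% at ZT16 and 2.04% at ZT20. The interaction of diet with the 6 times called 0 of the 8 and 0.631% of all genes, and the difference between the fitted waves called 0 of the 8 and 0.0287% of all genes, which is 4 of them. At an unadjusted p under 0.05 there was 1 of the 8 genes at ZT0 (23.6% of all genes), 2 at ZT4 (17.0%), 0 at ZT8 (9.41%), 2 at ZT12 (18.2%), 1 at ZT16 (13.2%) and 1 at ZT20 (13.5%). Under the same unadjusted threshold there were 2 for the interaction (13.4% of all genes) and 2 for the difference in waves (8.32%). A count of 0 to 2 among 8 genes is not set apart from these shares. Nampt was among these at ZT4, ZT12, ZT16 and ZT20 and in both tests of the pattern.

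The difference of Nampt, high fat diet minus normal chow, was 0.39 ± 0.12 at ZT4 (95% interval 0.15 to 0.64), a 1.31-fold difference with an adjusted p of 0.063. It was -0.28 ± 0.12 at ZT12 (adjusted p 0.203), -0.25 ± 0.12 at ZT16 (0.359) and -0.25 ± 0.12 at ZT20 (0.345). At ZT0 and ZT8 it was -0.05 and 0.03, each smaller than its SE. The ZT4 difference depended on single arrays. Without normal chow ZT4 replicate 2, the array of lowest weight and of the lowest Nampt level, it was 0.22 with an adjusted p of 0.446. It passed the test without normal chow ZT4 replicate 1 (0.0447), normal chow ZT4 replicate 3 (0.0362) or high fat diet ZT4 replicate 2 (0.0401), with quantile normalization (0.042), with the filter at the 50th percentile (0.049) and with the replicate block (0.0419).

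The amplitude of the fitted Nampt wave on the high fat diet minus that on normal chow was -0.20 ± 0.07 on the log2 scale, and the peak time differed by -1.29 ± 0.43 h, where a negative value is an earlier peak on the high fat diet. Without normal chow ZT4 replicate 2 these differences were -0.15 and -1.09 h. The joint test of both had an unadjusted p of 0.00103, rank 60 of 13956, and an adjusted p of 0.24. Over the alternative settings its adjusted p ran from 0.102 to 0.464 and the peak shift from -1.45 to -0.61 h. The interaction over the 6 times gave Nampt an F of 4.66 with an adjusted p of 0.139. Neither test passed the threshold.

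Nadk differed most at the start of the light phase. At ZT0 its levels were 10.68, 10.54 and 10.34 on the high fat diet, all below the 10.72, 10.71 and 10.73 on normal chow, while at ZT4 the high fat arrays lay above those on normal chow. The difference was -0.20 ± 0.07 at ZT0 (adjusted p 0.0959) and 0.16 ± 0.07 at ZT4 (adjusted p 0.252), or 0.15 (0.492) at ZT4 without normal chow ZT4 replicate 2. The ZT0 difference passed the test with median centring (adjusted p 0.00947) and without high fat diet ZT0 replicate 1 (0.044). Median centring moved the median difference of all genes at ZT0 to -0.10, and the Nadk difference under it was -0.34. Sirt3 at ZT4 was at 9.88, 10.04 and 9.92 on the high fat diet and 9.87, 9.58 and 9.83 on normal chow, which did not overlap, and its difference of 0.19 ± 0.12 had an adjusted p of 0.454. Without normal chow ZT4 replicate 2 that difference was 0.10. Nmnat1 at ZT12 was at 8.61, 9.15 and 9.36 on the high fat diet and 8.51, 8.49 and 8.71 on normal chow, which overlapped, with a difference of 0.47 ± 0.23 and an adjusted p of 0.272. The unadjusted p of Sirt1 for the difference in waves was 0.0422 and its adjusted p 0.583.
The waves of the other 4 rhythmic genes did not pass the test of a difference between the diets, with adjusted p from 0.806 to 0.994. The peak shift was -0.84 ± 1.27 h for Nmnat3, or -0.25 h without normal chow ZT4 replicate 2. It was 0.57 ± 1.00 h for Nadsyn1, -0.10 ± 1.23 h for Nnmt and -2.19 ± 1.38 h for Nadk. These errors are as large as an hour or more, so shifts of that size could not be told from none.

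**Figure D4:**
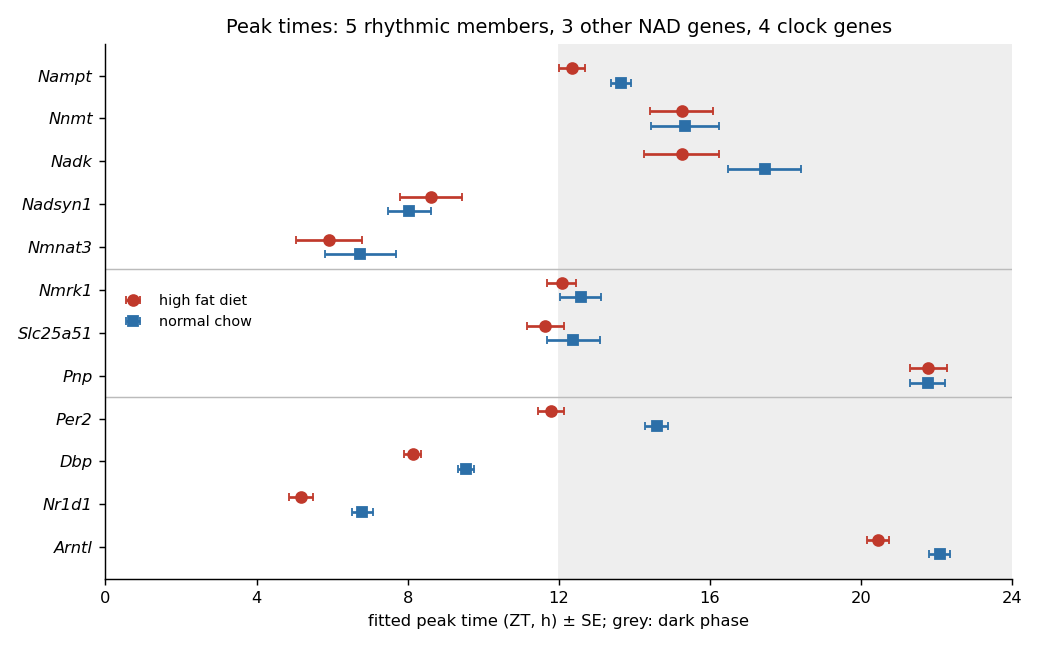
Fitted peak times with their SE. The x axis is ZT hours with the dark phase in grey, and circles are the high fat diet and squares normal chow. The panels from the top hold the 5 rhythmic genes of the 8, 3 other NAD genes (Nmrk1, Slc25a51 and Pnp) and 4 clock genes. Nampt peaks at 12.35 h on the high fat diet and 13.64 h on normal chow, and the 4 clock genes also have earlier fitted peaks on the high fat diet.

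The clock genes give the timing frame for these rhythms. Of 17 clock and clock output genes tested, 16 were rhythmic on each diet, and the difference in waves passed the test for 1, Per2. Of all genes tested, 11.0% were rhythmic on the high fat diet and 20.6% on normal chow, and 0.0287% passed for the difference in waves. Per2, a repressor of the clock, peaked at ZT11.80 on the high fat diet and ZT14.59 on normal chow, a shift of -2.79 ± 0.46 h (adjusted p 0.0137). Dbp, an output regulator, had a fitted shift of -1.43 ± 0.31 h (adjusted p 0.109). Arntl, an activator, had a shift of -1.64 ± 0.39 h and Nr1d1, a repressor of Arntl, one of -1.63 ± 0.42 h, both with an adjusted p of 0.234. In fitted times the Nampt peak came after that of Per2 on the high fat diet and before it on normal chow, an order that was not tested. Whether the Nampt shift follows those of the clock genes was not tested.

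A list of other genes of NAD synthesis, transport and turnover also held rhythms and diet differences. Of 13 such genes, all measured, 12 were tested and 5 of them differed by diet on average. Of these, 2 were higher and 3 lower on the high fat diet, where 11.2% of all genes tested were higher and 9.80% lower. Nnt, the gene of the mitochondrial transhydrogenase, had a higher probe set signal on the high fat diet by 0.21 ± 0.04 (adjusted p 5.73e-05). C57BL/6J mice are known to carry a deletion of several exons of Nnt and to lack the working enzyme, so this value concerns transcript signal only. Nudt12, which cleaves NADH, was higher by 0.24 ± 0.06 (0.002). Pnp, a nucleoside phosphorylase that can split nicotinamide riboside, was lower with a difference of -0.34 ± 0.06 (4.85e-05). Aox1, an oxidase of methylated nicotinamide, and Nmnat2 were also lower, with differences of -0.26 ± 0.06 (0.00155) and -0.16 ± 0.05 (0.027). The median difference of the 12 genes was 0.00.
On each diet, 3 of the 12 genes were rhythmic, where 11.0% of all genes tested were rhythmic on the high fat diet and 20.6% on normal chow. Neither count is set apart from its share. Nmrk1, the kinase that makes nicotinamide mononucleotide from its riboside, had an amplitude of 0.78 ± 0.08 on the high fat diet and 0.56 ± 0.08 on normal chow, with peaks at ZT12.08 and ZT12.58. Slc25a51, the mitochondrial NAD carrier, had 0.52 ± 0.07 on the high fat diet and 0.36 ± 0.07 on normal chow and peaked at ZT11.64 and ZT12.39. Both peaked near Nampt. Pnp peaked late in the dark phase, at ZT21.78 on the high fat diet and ZT21.77 on normal chow. None of these 3 genes passed the test of a difference in waves, with adjusted p from 0.675 to 0.993.

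Of 7 genes of the kynurenine route, which makes NAD from tryptophan, all were tested, 1 was higher and 2 were lower on the high fat diet. The shares of all genes tested were 11.2% higher and 9.80% lower. Acmsd, which diverts an intermediate away from NAD, had a mean of 8.64 ± 0.52 on the high fat diet and 9.63 ± 0.56 on normal chow (SD, n = 18 each), a difference of -0.99 ± 0.10 (adjusted p 1.74e-08). Afmid, the formamidase of the route, was lower with a difference of -0.43 ± 0.04 (2.37e-09). Kmo, the hydroxylase of kynurenine, was higher by 0.16 ± 0.03 (0.000934). Acmsd, Afmid and Kynu were rhythmic on both diets, where 11.0% of all genes tested were rhythmic on the high fat diet and 20.6% on normal chow. Acmsd peaked at ZT17.59 on the high fat diet and ZT19.37 on normal chow.

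Among other NAD-consuming enzymes (further sirtuins, PARPs and NAD glycohydrolases), 10 of 12 were measured and 8 tested. None of the 8 differed by diet on average in limma's test, and 1 had an unadjusted p under 0.05, as did 32.1% of all genes tested. The smallest adjusted p was that of Sirt5, 0.0528 with a difference of 0.09 ± 0.03. On the high fat diet 1 was rhythmic (11.0% of all genes tested), Parp3, with an amplitude of 0.23 ± 0.04 and a peak at ZT5.08. On normal chow 3 were rhythmic (20.6% of all genes tested): Parp3 (0.16 ± 0.04, peak ZT3.77), Parp2 (0.18 ± 0.05, peak ZT3.50) and Sirt5 (0.15 ± 0.03, peak ZT6.23). All of these peaks lay in the light phase. The mitochondrial desuccinylase Sirt5 was thus called rhythmic on normal chow, where Sirt1 and Sirt3 were not, and the differences between them were not tested.

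Likeness of profile was described by Pearson's r over the 12 group means, which share the same diets, times and arrays. The genes most like Nampt were Bnip3 (0.962), Noct (0.951) and Usp2 (0.950). Noct, a phosphatase of NADP known as a rhythmic gene, had fitted peaks at ZT11.76 on the high fat diet and ZT13.47 on normal chow. Within groups, over the 36 arrays, the correlations of these 3 genes with Nampt were 0.259, -0.075 and -0.026. The genes most like Nmnat1 were Tank (0.981), Tceanc2 (0.973) and Reep6 (0.966), and here the correlations within groups were also high, at 0.641, 0.753 and 0.783. For Nadsyn1 they were Hoga1 (0.975), Ddx46 (0.974) and Mgrn1 (0.974), and for Nmnat3 Pced1b (0.965), Dmac2l (0.963) and 1810046K07Rik (0.938). For Nadk they were Vti1b (0.939), Gdf2 (0.928) and Rbm4b (0.915), and for Nnmt Asl (0.944), Slc35g1 (0.937) and Uck2 (0.917). Sirt1 was least matched, by Zfp771 (0.903), Rbm7 (0.890) and Tgds (0.870), while Sirt3 was nearest to Scarb2 (0.959), Psmd9 (0.951) and Uqcc1 (0.940). In the same order, the correlations within groups were 0.112, 0.679 and 0.720 for Sirt1 and 0.695, 0.659 and 0.527 for Sirt3. They were 0.441, 0.348 and 0.529 for Nadsyn1, and those for Nmnat3, Nadk and Nnmt lay between -0.089 and 0.478.
Among the 8 genes themselves, the highest correlations of group means were Nampt with Sirt3 (0.764), Nampt with Nnmt (0.752) and Nmnat3 with Nadsyn1 (0.740). The lowest was Nmnat3 with Nadk (-0.665), which peaked in the light phase and the dark phase. Within groups Nampt and Nnmt correlated at -0.575, the other way from their group means. Part of this came from normal chow ZT4 replicate 2, the array of lowest weight. There Nampt was at 8.90 (group mean 9.24) and Nnmt at 11.48 (group mean 11.10). The correlation without that array was not computed. Nmnat1 and Sirt3 correlated at -0.579 within groups and at -0.605 in group means.

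Some cell type markers differed by diet on average, where 11.2% of all genes tested were higher and 9.80% lower on the high fat diet. Of 10 Kupffer cell and macrophage markers tested, 7 were higher and 0 lower on the high fat diet, and at single times 7 were higher at ZT0, 1 at ZT12 and 0 at the other 4 times. Of all genes tested, 7.12% were called at ZT0 and 5.44% at ZT12 in either direction, and the count of 1 at ZT12 is not set apart from its share. The summed intensity of the 11 Kupffer cell and macrophage markers measured ran from 3304 to 7664 on the high fat diet and from 2196 to 5832 on normal chow. Of 5 adipocyte markers tested 3 were higher: Cidec by 1.16, Fabp4 by 0.305 and Slc2a4 by 0.17. Plin1 and Retn, with differences of 0.02 and 0.04, did not pass. The sum of the measured adipocyte markers ran from 419.9 to 1166 on the high fat diet and from 406.1 to 614.7 on normal chow. The defining markers Adipoq and Lep lay below the filter. Of 9 stellate cell markers 3 were higher, with sums of 4739 to 7015 on the high fat diet and 4316 to 6517 on normal chow. Of the 8 hepatocyte markers 3 were lower, namely Cps1, Tat and Hnf4a, with differences of -0.16, -0.18 and -0.13. Of 5 lymphocyte markers tested Cd4 and Ptprc were higher, of 3 bile duct markers Pkhd1 was higher, and of 8 sinusoidal endothelial markers Tie1 was lower, with adjusted p of 0.000733, 0.0383, 0.0435 and 0.00319. The 2 neutrophil markers tested did not pass. A count of 1 among 3 bile duct or 8 endothelial markers, or of 2 among 5 lymphocyte markers, is not set apart from the shares of all genes. Whether the counts of the other marker lists exceed these shares was not tested. The part of these markers in the diet differences of the NAD genes was not tested. The markers that were rhythmic on both diets were Tat of hepatocytes, Pdgfrb of stellate cells, and Sox9 and Pkhd1 of bile duct. Tat peaked at ZT12.72 on the high fat diet and ZT15.57 on normal chow, both in the dark phase, as did Nampt and Nnmt, and the other 3 peaked between ZT23.62 and ZT5.45 on the high fat diet and between ZT0.80 and ZT4.97 on normal chow.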

How the data were processed

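Liver RNA from 36 samples was measured on Affymetrix whole-transcript gene arrays, 1 array per sample. The deposited values are linear probe set intensities, made by the authors with Affymetrix Expression Console 1.1.1 and PLIER 2.0, per the submitters' processing notes. How background was corrected and whether arrays were normalized together is not given in the sources used here. No scaling was added in the main setting. Intensities were taken as log2(intensity + 16), which understates changes of dim probe sets. The number of arrays, 3 per group, limits the precision.

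Of 35556 probe sets, the platform annotation paired 21789 with 1 gene, 1621 with several and 12146 with none listed. Gene identifiers gave current symbols for 99.6% of probe sets with 1 gene. The brightest probe set stood for each of 19938 genes, and genes above the 30th percentile of mean level (log2 6.11) were tested, 13956 in all. Groups came from the labels. limma 3.58.1 in R 4.3.3 fitted 1 mean for each of the 12 groups, with contrasts for the diet effect averaged over the day, at each time and by time (moderated F), with 24 residual degrees of freedom. A second fit held a mean and a 24 h cosine and sine for each diet, with F tests for a rhythm on each diet and for equal waves. Calls were made at an adjusted p under 0.05 (Benjamini-Hochberg over all genes tested). Amplitude and peak errors are standard errors from the fit. The fits were tested on simulated data. No pair of arrays held identical values.

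The 8 genes, the other gene lists and the tests were chosen with earlier results of these data known. Named genes were the 8 members, the 3 genes most like each by group means, called genes of each other list (up to 4 per comparison, or the gene of smallest p where none was called) and 4 clock genes for peak time. Alternatives were quantile normalization, median centring, other offsets (1, 64), other filters, the mean of probe sets, a replicate block, array weights, a trended robust prior, tests over 5 degrees of freedom, an adjusted p under 0.01 and leaving out each array. Figures were drawn with matplotlib 3.10.9 in Python 3.11.15.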

Additional observations from a re-analysis of the deposited data

How the results depend on the processing

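Nampt was rhythmic on both diets in all 47 alternative settings. At an adjusted p under 0.01, which is not among these settings, Nadk lost its rhythm call on both diets (0.0243 on the high fat diet and 0.0109 on normal chow). Across 4061 values of the 8 genes under the 47 settings, 32 gained a call, 2 lost one, and 74 changed sign without a call in either setting, the largest of these 0.19 in the main setting. With array weights Nmnat1 passed the test at ZT8 (-0.52, adjusted p 0.044), at ZT16 (0.60, 0.0424) and in the interaction (0.024), and Sirt3 passed at ZT8 (0.29, 0.0438). The labels do not say whether replicate numbers pair the samples. Across the diets at the same time, deviations of same-numbered samples correlated between -0.412 and 0.350, above 0.1 in 5 of 18 pairs. Differently numbered samples were not compared, so these values cannot decide whether the numbers mark a shared batch or day. With the replicate block 2952 genes differed by diet on average, 1488 were rhythmic on the high fat diet and 2838 on normal chow, and among the 8 genes the block added the Nampt call at ZT4. Nmnat3 was not tested with the filter at the 50th percentile.

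Counts over all genes depended on the setting. At an adjusted p under 0.01 they were 1818 for the average diet effect, 204, 221, 52, 296, 101 and 110 at ZT0 to ZT20, 31 for the interaction, 855 for rhythm on the high fat diet, 1711 on normal chow and 2 for the difference in rhythm. With array weights they were 4259 for the average, 1082 at ZT4, 1716 at ZT8, 1205 at ZT12, 1336 at ZT16, 821 at ZT20, 1862 for the interaction, 2802 for rhythm on the high fat diet and 185 for the difference. Median centring gave 1806 at ZT0 and 191 at ZT16, and quantile normalization 151 for the interaction and 11 for the difference. Tests over the 6 times gave 2340 for rhythm on the high fat diet and 88 for the difference. The causes were not tested. Leaving out 1 array gave 2592 to 3068 for the average diet effect, 270 to 1143 at ZT0, 258 to 611 at ZT4, 54 to 129 at ZT8, 291 to 855 at ZT12, 96 to 363 at ZT16 and 121 to 338 at ZT20. It gave 69 to 134 for the interaction, 1326 to 1669 for rhythm on the high fat diet, 2469 to 3370 on normal chow and 4 to 11 for the difference. The fewest calls at ZT0 to ZT20 came without normal chow ZT0 replicate 3, high fat diet ZT4 replicate 1, high fat diet ZT8 replicate 1, normal chow ZT12 replicate 2, high fat diet ZT16 replicate 2 and normal chow ZT20 replicate 3.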
